A study of Mus musculus with 7 samples.

Results

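Nuclear pore and nucleocytoplasmic transport genes were followed in bulk RNA-seq of mouse motor cortex. They were chosen by name: protein-coding genes whose symbol begins with Nup and a digit, the numbered Kpn, Ipo, Tnpo and Xpo families with Xpot, and Ran, Ranbp1, Ranbp2, Rangap1, Rcc1, Tpr, Ndc1, Pom121, Nxf1 and Nxt1. The rule found 54 of the 54532 genes in the deposited table. No expression value entered it, but earlier results of these data were known when the members were chosen. Of these 54, 51 had enough counts to be tested, among 16308 genes in all. Kpna7 had 0 counts in every library, Nup62cl had 0 to 5 and Nup210l had 4 to 17, and these 3 members were not tested.

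Of the 7 libraries, 3 were labelled WT and 4 cKO, a conditional knockout. All animals, controls included, had been injected on postnatal day 0 into the left and right lateral ventricles with a virus named GA100, and motor cortex was taken 3 months later, so no uninjected group was analysed here. By its title the series concerns C9orf72 poly-GA mice and TIA1, a protein of stress granules. The labels name neither the deleted exons, the driver of the deletion, the promoter of the virus nor the strain, and do not say in so many words that each library is a separate mouse, so p-values rest on the spread among libraries, which may be technical. Tia1 stood at 60.6, 95.8 and 68.9 CPM (counts scaled to library size, with edgeR's TMM factors) in WT replicates 1 to 3 and at 81.4, 80.3, 72.7 and 81.9 CPM in the libraries labelled cKO. All log2 fold changes are given as cKO minus WT, and that of Tia1 was 0.07 ± 0.13 (SE; edgeR adjusted p = 0.914). The mean of Tia1 was thus not lower in the libraries labelled cKO, at 79.1 CPM against 75.1 CPM in WT. A gene-wide count can miss the loss of single exons, and reads per exon were not examined. This gene therefore did not check the labels, and cKO below stands for the libraries labelled so.

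Library totals ran from 15181390 to 16463721 counts. WT replicate 1 and cKO replicate 1 carried 0 and 1 counts over Y-linked genes, and the other libraries 2126 to 2584. Defining markers of cortical excitatory neurons were all measured, 13 of 13, with sums of 5075 to 5591 CPM in WT and 4239 to 5017 CPM in cKO. The lower sums in cKO were not shared by all 13 genes. Their log2 fold changes were positive for 6 and negative for 7, and 0 passed the adjusted p threshold in edgeR. With log2 CPM centred on each gene's mean, their average overlapped between groups, at -0.04 to 0.13 in WT and -0.06 to 0.02 in cKO. Markers of striatal medium spiny neurons, a neighbouring region, summed to 826 to 1104 CPM in WT and 888 to 1582 CPM in cKO. Those of choroid plexus and ependyma stood at 181 CPM in cKO replicate 4 and at 18.4 to 29.5 CPM elsewhere, and those of dividing cells summed to only 12.8 to 21.2 CPM. In bulk tissue, fewer cells of a type and less RNA per cell cannot be told apart.

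The nuclear pore is a large ring-shaped channel through the nuclear envelope. Scaffold nucleoporins build its outer and inner rings, transmembrane nucleoporins anchor it, and nucleoporins rich in phenylalanine-glycine repeats fill the channel and let only receptor-bound cargo pass. Importins carry proteins in and exportins carry proteins and RNAs out. The small GTPase Ran gives the direction, since it is loaded with GTP in the nucleus by Rcc1 and made to hydrolyse it in the cytoplasm with the help of Rangap1, while bulk mRNA leaves through the separate receptor Nxf1 with its partner Nxt1. In repeat expansion disease of C9orf72, disturbed nuclear transport and mislocated pore and Ran cycle proteins have been described as part of the pathology in neurons, which keep many of their pores for life.

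Promoters of 45 of the 54 members were found in a RefSeq table (GRCm38.p6, the assembly that mm10 is built on), as 54 windows from 250 bases before to 50 after a start site, some genes having more than 1 window. The promoters of Nup98 and Tnpo2 are shown because these are the members with the lowest p in each direction, and that of Ran because it is the most abundant member and holds an NRF1 motif. Nup98 and Tnpo2 had 2 windows each, of which 1 is shown, and Ran had 1. The windows shown lie at chr7:102210117-102210416 on the reverse strand, chr8:85036643-85036942 on the forward strand and chr5:129019906-129020205 on the forward strand. Each is written 5′ to 3′ on the gene's strand, and capitals mark matches, on either strand, to the motifs searched.
Nup98: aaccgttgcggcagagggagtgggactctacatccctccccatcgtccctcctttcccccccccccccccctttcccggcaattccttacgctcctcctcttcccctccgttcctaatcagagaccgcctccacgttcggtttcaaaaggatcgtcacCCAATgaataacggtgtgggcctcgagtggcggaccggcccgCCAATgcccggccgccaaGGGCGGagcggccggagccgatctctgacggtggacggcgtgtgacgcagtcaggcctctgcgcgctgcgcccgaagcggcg
Tnpo2: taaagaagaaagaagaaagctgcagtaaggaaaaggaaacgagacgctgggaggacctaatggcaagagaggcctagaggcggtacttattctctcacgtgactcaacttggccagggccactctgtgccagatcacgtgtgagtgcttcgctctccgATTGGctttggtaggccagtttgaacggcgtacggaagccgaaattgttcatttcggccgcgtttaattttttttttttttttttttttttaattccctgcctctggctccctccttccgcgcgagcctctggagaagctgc
Ran: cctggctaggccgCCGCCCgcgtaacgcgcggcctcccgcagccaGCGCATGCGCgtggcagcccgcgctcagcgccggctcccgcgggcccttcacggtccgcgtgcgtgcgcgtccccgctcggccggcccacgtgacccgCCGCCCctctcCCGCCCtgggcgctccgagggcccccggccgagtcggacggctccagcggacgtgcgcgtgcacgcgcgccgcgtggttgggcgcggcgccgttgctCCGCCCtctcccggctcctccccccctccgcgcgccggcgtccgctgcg

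The motif of NRF1 (GCGC, any base, then TGCGC), a factor of housekeeping promoters, was in 16.7% of the 54 member windows and in 4.60% of all 32851 windows of the table. It was found for Ran, Nup62, Nup107, Nup50, Xpo5, Ipo9 and Nxt1. The GC box (GGGCGG) was in 68.5% of member windows and 35.7% of all, the CCAAT box (CCAAT) in 27 of the 54 and in 37.4% of all, an ETS motif (CCGGAAG) in 13.0% and 8.86%, and a YY1 motif (AANATGGCG) in 7.41% and 2.38%. Member windows were also richer in G and C, with a median of 64.2% against 52.7% of all windows, and the part of base composition in these matches was not tested. A GC box match can overlap a match to another motif. A match describes letters in the window and shows no binding.

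Levels per length were compared on the authors' FPKM (fragments scaled to exon length and to library size), which use the exon length in the deposited table. Ran was the most abundant member, at a mean of 53.4 FPKM over the 7 libraries, followed by Rangap1, its GTPase-activating protein, at 43.9 FPKM. The receptors came next: Ipo5 (33.7 FPKM), Kpnb1, the importin beta that carries classical import (30.9 FPKM), and Kpna3 (29.7 FPKM). The 23 members of the structural pore had a median of 4.49 FPKM, from 0.888 FPKM for Nup37 to 23.9 FPKM for Ranbp2, and the 23 importins and exportins a median of 13.6 FPKM, from Kpna7, listed at 0, to Ipo5. Neighbours in this order could seldom be told apart, as the ranges over the 7 libraries overlapped for 50 of 53 neighbouring pairs.

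**Figure D1:**
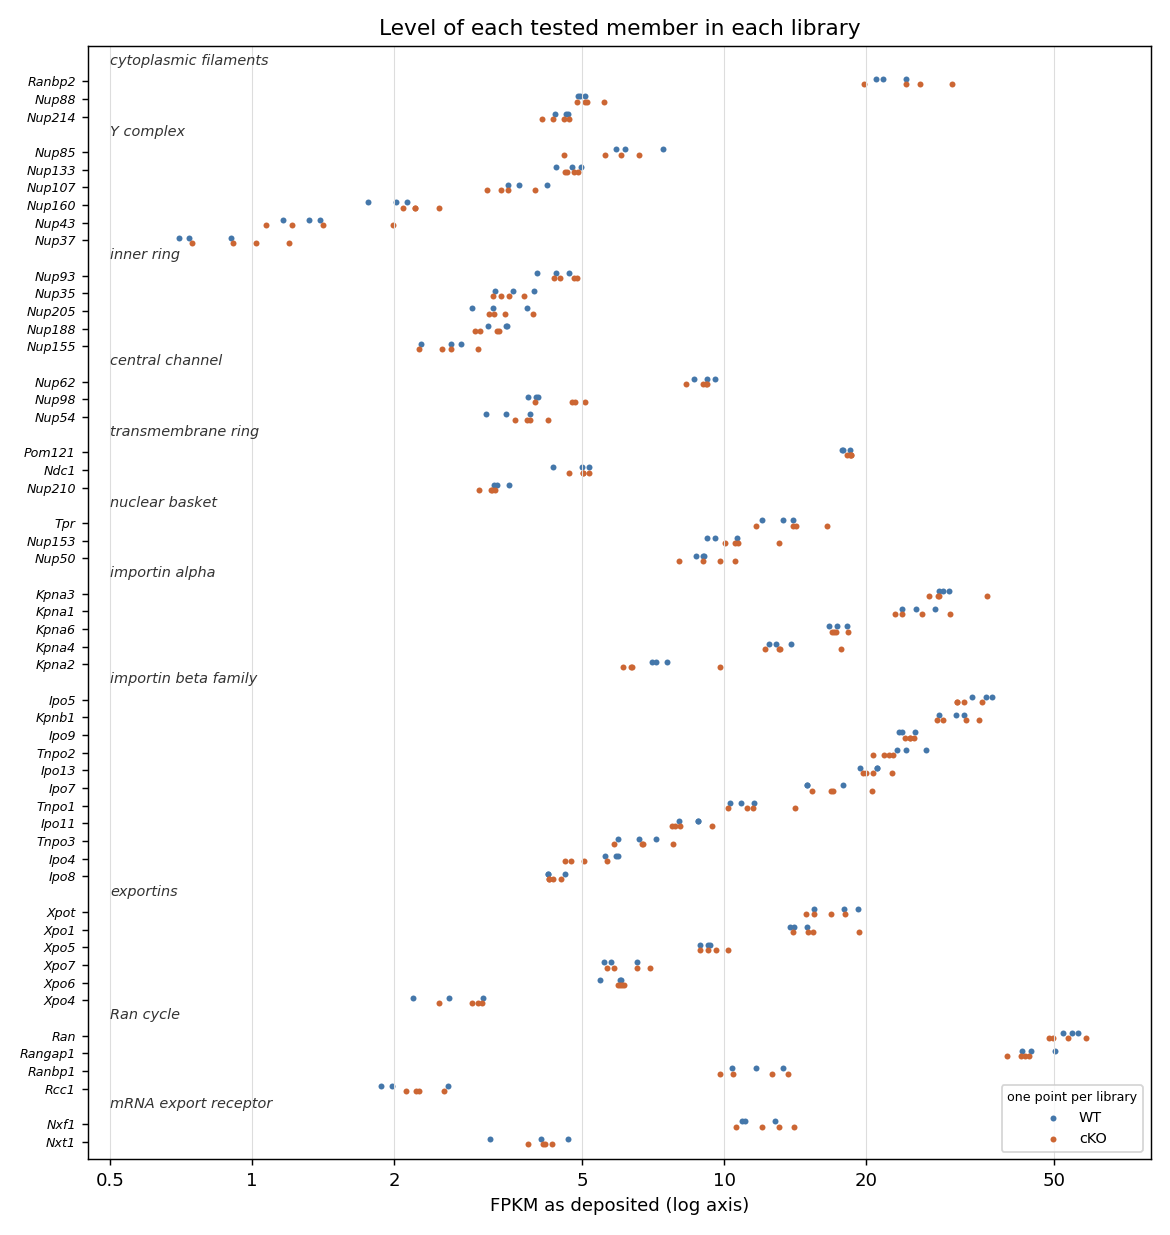
Each point is the deposited FPKM value of 1 library (log axis), in blue for WT and orange for cKO, for the 51 tested members grouped by role. Ran and Rangap1 lie furthest right, Nup37 and Nup43 furthest left, and WT and cKO points lie side by side for nearly every gene.

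Parts of one structure did not share one RNA level. Within the Y complex, the outer ring scaffold, mean levels ran from 0.888 FPKM (Nup37) and 1.37 FPKM (Nup43) to 6.04 FPKM (Nup85). The inner ring was more even, from 2.59 FPKM (Nup155) to 4.52 FPKM (Nup93). Among transmembrane members, Pom121 stood at 18.3 FPKM, Ndc1 at 4.92 and Nup210 at 3.25, and the basket genes Tpr, Nup153 and Nup50 stood at 13.7, 10.5 and 9.18 FPKM. Of the importin alpha adaptors, Kpna3, Kpna1, Kpna6 and Kpna4 had 29.7, 25.8, 17.4 and 13.6 FPKM, and Kpna2, known for high levels in dividing cells, had 7.20. The Ran cycle spanned the widest range, since Rcc1, the exchange factor, had only 2.23 FPKM.

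The question the series states is how motor cortex transcripts of cKO mice compare with those of WT mice. For nuclear transport, 0 of 51 members passed an adjusted p of 0.05 in edgeR's quasi-likelihood test, where 0.0% of all 16308 genes did (0 genes), and the smallest adjusted p of a member was 0.694. At an unadjusted p under 0.05 there were 2 members, Nup98 with a higher and Tnpo2 with a lower value in cKO, or 3.92% of members against 7.14% of all genes (4.22% higher and 2.91% lower). DESeq2 and limma-voom called 0 members too, against 0.0193% and 0.0% of the genes they tested. Each had 2 members at an unadjusted p under 0.05. The shares over all genes were 3.43% of 31257 in DESeq2 and 6.78% of 16308 in limma-voom. DESeq2 was run without the filter on low counts, so its share is over a wider set of genes. Groups did not overlap for 1 member, Tnpo2, or 1.96% of members against 7.38% of all genes (3.97% with cKO above WT and 3.42% below).

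Log2 fold changes of the members were small, between -0.21 (Ipo4) and 0.32 (Nup37). The value was positive for 35 members and negative for 16, with a median of 0.05, beside 51.8% positive and a median of 0.01 over all genes tested. The count of positive values rested on single libraries: it was 26 of 51 without WT replicate 1 and 26 without cKO replicate 3, with medians of 0.012 and 0.0051. With upper-quartile scaling it was 31. The precision was better than for most genes, with a median SE of 0.10 against 0.14. For 49 of the 51 members (96.1%) the single-gene 95% interval lay wholly within a 1.5-fold change in either direction, as it did for 65.5% of all genes. The exceptions were Nup37 (-0.19 to 0.83) and Nup43 (-0.37 to 0.65), the Y complex members with the fewest counts, and all 51 intervals lay within a 2-fold change.

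**Figure D2:**
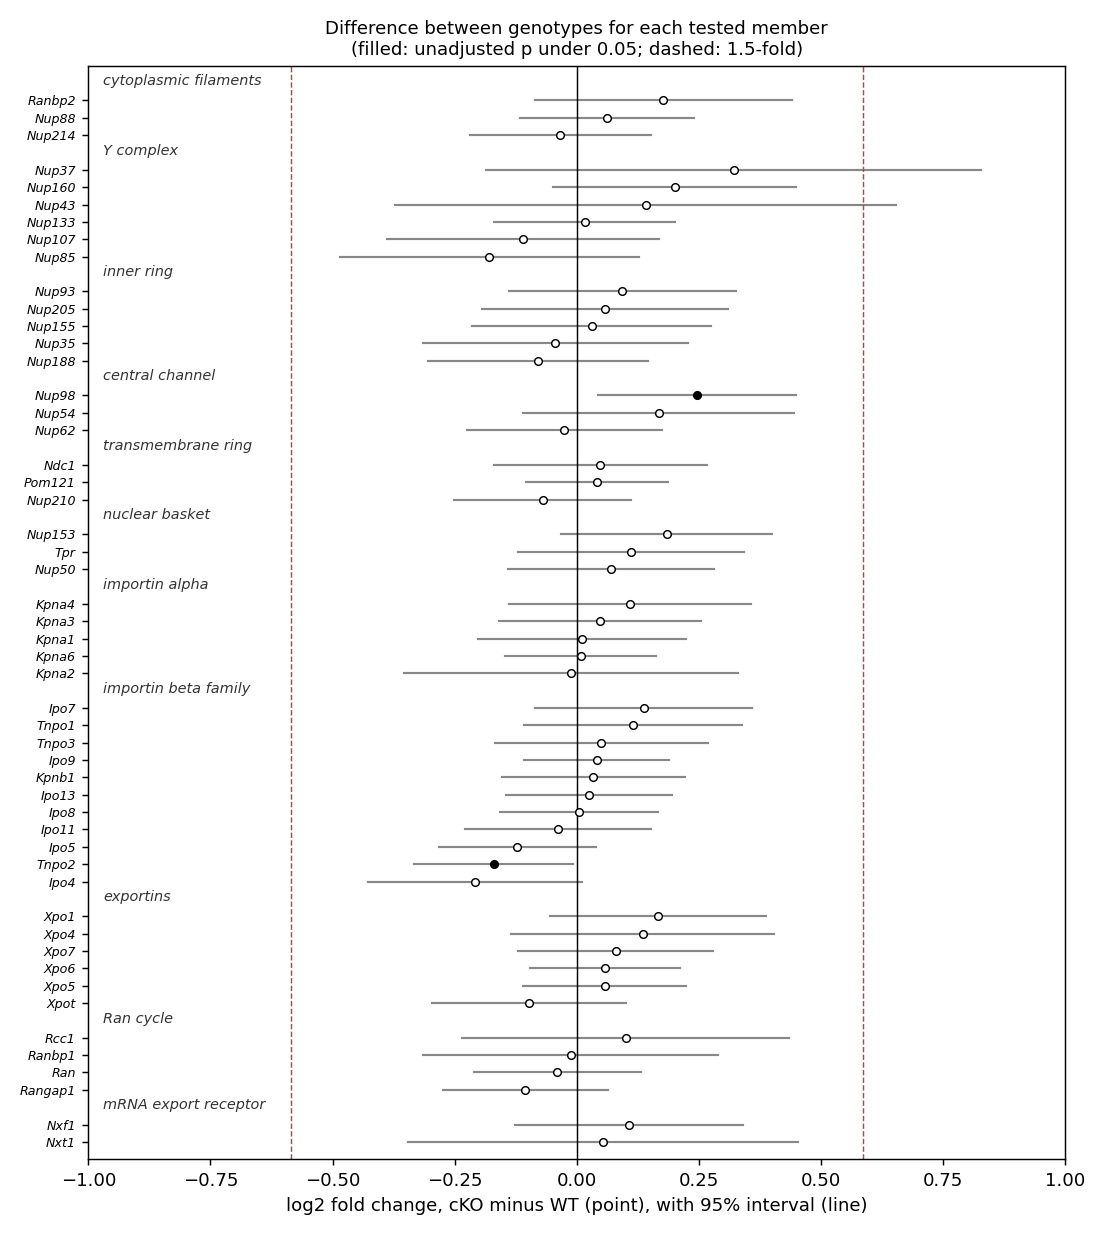
Points give the log2 fold change (cKO minus WT) of each tested member from edgeR and lines its 95% interval, by role; filled points had an unadjusted p under 0.05 and dashed lines mark a 1.5-fold change. Only Nup98 and Tnpo2 have intervals that leave out 0, and only Nup37 and Nup43 cross a dashed line.

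Among channel nucleoporins, Nup98 (ENSMUSG00000063550, chromosome 7, 102119398 to 102210176, mm10, reverse strand) supplies repeats that bind transport receptors and takes part in mRNA export. It stood at 48.2, 50.8 and 50.7 CPM in WT replicates 1 to 3 and at 50.7, 64.7, 60.7 and 60.6 CPM in cKO replicates 1 to 4. cKO replicate 1 lay within the WT range and the other 3 cKO libraries above it. The log2 fold change was 0.25 ± 0.09 (SE; edgeR p = 0.0214, adjusted p = 0.694), and the exact two-sided permutation p over the 35 possible assignments of labels was 0.171, where the smallest this design allows is 0.0571. Leaving out 1 library gave 0.19 to 0.30. Nup62, the central channel member with the highest level per length in FPKM, had -0.03 ± 0.09, with 24.8 to 27.2 CPM in WT and 23.9 to 26.5 CPM in cKO, and Nup54 had 0.17 ± 0.13, or 0.09 without WT replicate 1.

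The channel partner of Nup62 that the table calls Nupl1 (also named Nup58) was held by the list of other pathway genes, and its row had 0 to 4 counts. A row named Gm49336 (chromosome 14, 60205282 to 60251507) covers most of the same locus (60184612 to 60251431) on the same strand and held the reads, with 68.5, 70.8 and 68.5 CPM in WT and 63.4, 79.5, 88.3 and 69.0 CPM in cKO. Its log2 fold change was 0.11 ± 0.11 (SE; edgeR adjusted p = 0.833). This row was looked up after the low values of Nupl1 were seen, and which of the annotated transcripts the reads came from was not tested.

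On the cytoplasmic face, Ranbp2, a giant filament protein that binds Ran, had 246, 256 and 284 CPM in WT and 235, 308, 356 and 287 CPM in cKO. The cKO libraries held both the lowest and the highest value. Its log2 fold change was 0.18 ± 0.12 (SE; edgeR adjusted p = 0.765), and 0.07 without cKO replicate 3. The 12 rows named as Ranbp2 pseudogenes held 0 counts in all libraries together. Nup214 and Nup88, the other filament members, had -0.03 ± 0.08 and 0.06 ± 0.08.

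In the Y complex, Nup160 had 15.4, 18.8 and 17.6 CPM in WT and 18.5, 19.6, 21.7 and 19.5 CPM in cKO, and its log2 fold change was 0.20 ± 0.11 (SE; edgeR adjusted p = 0.731). Only WT replicate 2 reached into the cKO range, and without WT replicate 1 the log2 fold change was 0.12. Nup85 had 19.9, 25.3 and 20.8 CPM in WT and 22.5, 20.6, 15.4 and 19.1 CPM in cKO (-0.18 ± 0.14, SE), with the lowest value in cKO replicate 3. Its log2 fold change was -0.076 without WT replicate 2 and -0.091 without cKO replicate 3. Nup107, whose loss disturbs pore assembly, had -0.11 ± 0.13, or -0.031 without WT replicate 2, and Nup133 had 0.02 ± 0.09, which turned negative with upper-quartile scaling. Values of subunits of this ring lay on both sides of 0, 4 positive and 2 negative, with 0 at an unadjusted p under 0.05, and the count reversed to 2 and 4 without cKO replicate 3.

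The inner ring had 3 positive and 2 negative values, from -0.08 (Nup188) to 0.09 (Nup93), and the transmembrane ring 2 positive and 1 negative. Without WT replicate 1 these counts were 1 and 4 for the inner ring, with Nup93 at 0.028, and 1 and 2 for the transmembrane ring, with Ndc1 at -0.032. Nup205, an inner ring scaffold, had 0.06 ± 0.12 and turned negative with the replicate block, without WT replicate 1 and without cKO replicate 4. Pom121, a membrane anchor of the pore studied in C9orf72 neurons, was the steadiest of all members: 103, 99.9 and 99.7 CPM in WT and 103, 105, 103 and 104 CPM in cKO, a coefficient of variation of 1.90% over the 7 libraries. Its log2 fold change was 0.04 ± 0.07 (SE), with a 95% interval from -0.10 to 0.19. The gene Nsun5 on the opposite strand overlaps 11.9% of the exon bases of Pom121 and held 65 to 115 counts. Whether the counting used strand is not given, so reads of the shared bases cannot be told apart. Nup210, a membrane nucleoporin, had -0.07 ± 0.08.

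The 3 basket genes, which face the nucleus, all had positive values. Nup153 had 64.4, 67.6 and 74.8 CPM in WT and 71.3, 75.6, 91.7 and 74.6 CPM in cKO, and its log2 fold change was 0.18 ± 0.10 (SE; edgeR adjusted p = 0.715). WT replicate 3 lay among the cKO libraries, and the value was 0.09 without cKO replicate 3. With the replicate number as a block in edgeR, Nup153 had an unadjusted p of 0.0364, Tnpo2 one of 0.0522 and Nup98 one of 0.0315. In that fit 7.52% of all genes had an unadjusted p under 0.05, and 0 members were called. No WT library shares the number of cKO replicate 4, so that library adds nothing to the difference between groups there. The labels do not state that same-numbered libraries are paired. Tpr and Nup50 had 0.11 ± 0.11 and 0.07 ± 0.10, and 0.02 and 0.01 without cKO replicate 3. All 3 basket values stayed positive with any 1 library left out.

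Transportins carry RNA-binding proteins into the nucleus. Tnpo2 (ENSMUSG00000031691, chromosome 8, 85036915 to 85057583, mm10, forward strand) had 168, 147 and 152 CPM in WT and 139, 131, 143 and 142 CPM in cKO. Every cKO library lay below every WT library, with WT replicate 1 the highest of all. The log2 fold change was -0.17 ± 0.07 (SE; edgeR p = 0.0424, adjusted p = 0.696), the exact two-sided permutation p was 0.0571, and without WT replicate 1 the log2 fold change was -0.12. A noncoding gene on the opposite strand, A230103J11Rik, overlaps 10.6% of its exon bases and held 33 to 45 counts; whether the counting used strand is not given, so reads of the shared bases cannot be told apart. Its paralogue Tnpo1 had 115, 131 and 121 CPM in WT and 116, 126, 158 and 130 CPM in cKO (0.12 ± 0.10, SE), and 0.01 without cKO replicate 3. The difference between the paralogues was not tested.

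Importins of the beta family had 7 positive and 4 negative values, but 4 and 7 without cKO replicate 3, where Kpnb1, Tnpo3 and Ipo8 turned negative, and 5 and 6 without WT replicate 1, WT replicate 2 or cKO replicate 2. Ipo8, at 0.0044, also turned negative under each of the other scalings. Ipo4, which imports histones and ribosomal proteins, had 27.5, 26.3 and 27.8 CPM in WT and 23.9, 26.5, 22.1 and 21.7 CPM in cKO, and its log2 fold change was -0.21 ± 0.10 (SE; edgeR adjusted p = 0.700). Only cKO replicate 2 reached the WT range. Another gene model on the same strand, Gm49378, covers 55.3% of the exon bases of Ipo4 and held 0 or 1 counts, and how reads of the shared part were counted is not given in the sources used here. Ipo5, another importer of ribosomal proteins and histones, had 221, 202 and 215 CPM in WT and 189, 195, 210 and 188 CPM in cKO (-0.12 ± 0.07, SE; edgeR adjusted p = 0.742). Kpnb1, on which import with importin alpha adaptors depends, had 0.03 ± 0.09, with a 95% interval from -0.15 to 0.22, and turned to -0.02 without cKO replicate 3 or without WT replicate 2.

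The importin alpha adaptors, which read the classical import signal, had 4 positive values and 1 negative, from -0.01 (Kpna2) to 0.11 (Kpna4). Without cKO replicate 3 the count reversed to 1 positive (Kpna6) and 4 negative, and Kpna4 turned to -0.025. It was 2 and 3 without WT replicate 1 or without WT replicate 2, and Kpna1 and Kpna6 turned negative with upper-quartile scaling. Kpna2 (chromosome 11, 106988629 to 106999541, mm10) had 20.5, 20.3 and 21.7 CPM in WT and 18.6, 17.7, 28.1 and 18.4 CPM in cKO. Without cKO replicate 3, all remaining cKO libraries lay below all WT libraries. The log2 fold change was then -0.20 (edgeR unadjusted p = 0.0743) in place of -0.01 ± 0.16 (SE). How many of all genes separate in this way without that library is not given here. Kpna3 had 122, 126 and 129 CPM in WT and 118, 124, 154 and 123 CPM in cKO, and Kpna4 115, 112 and 124 CPM in WT and 110, 119, 158 and 117 CPM in cKO, both again highest in cKO replicate 3.

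Exportins had 5 positive values and 1 negative. Xpo1, the exporter of proteins with leucine-rich signals, had 98.5, 101 and 108 CPM in WT and 102, 109, 138 and 111 CPM in cKO, and its log2 fold change was 0.17 ± 0.10 (SE; edgeR adjusted p = 0.745). Without cKO replicate 3 it was 0.06. Xpot, which exports transfer RNA and was the most abundant exportin per length, had the negative value, -0.10 ± 0.09, between -0.19 without WT replicate 2 and -0.03 without WT replicate 3. This count of 5 and 1 held with any 1 library left out. Xpo5, the exporter of microRNA precursors, had 0.06 ± 0.08, or 0.02 without cKO replicate 3.

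In the Ran cycle, Rangap1 had 243, 209 and 217 CPM in WT and 195, 217, 211 and 208 CPM in cKO, and its log2 fold change was -0.11 ± 0.08 (SE; edgeR adjusted p = 0.785), and -0.04 without WT replicate 1, the library with the highest value. Ran had 148, 139 and 144 CPM in WT and 143, 130, 154 and 133 CPM in cKO (-0.04 ± 0.08, SE). Ranbp1, which helps hydrolysis of GTP on Ran, had -0.01 ± 0.14, which turned to 0.03 with the replicate block. Rcc1 had 0.10 ± 0.15, between 0.01 without WT replicate 3 and 0.25 without WT replicate 1. The mRNA export receptor Nxf1 had 65.1, 77.2 and 66.2 CPM in WT and 85.1, 72.6, 63.0 and 78.6 CPM in cKO (0.11 ± 0.11, SE). The groups overlapped, with the lowest and the highest value in cKO, and the log2 fold change was 0.03 without cKO replicate 1 and 0.18 without WT replicate 2. Its partner Nxt1 had 0.05 ± 0.18, or -0.09 without WT replicate 1.

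**Figure D3:**
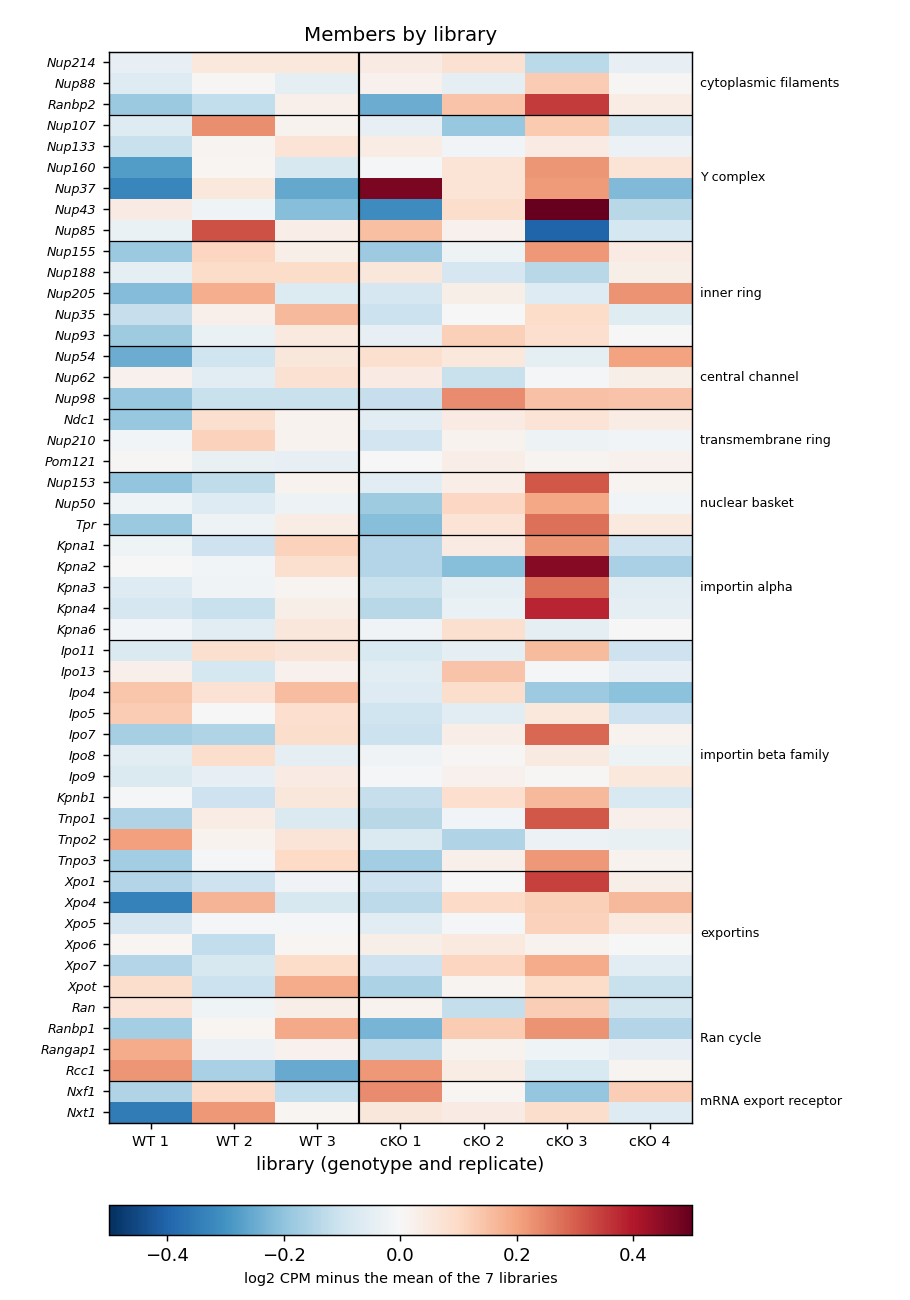
Rows are the 51 tested members by role and columns the 7 libraries, and colour is log2 CPM centred on each gene's average, with colours capped at 0.5 in either direction. The column of cKO replicate 3 is red for the basket genes and most importin alpha and exportin genes, and blue for Nup85, Nxf1 and Ipo4.

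Many members were highest or lowest in the same few libraries. cKO replicate 3 was the highest of the 7 libraries for 22 of 51 members (43.1%), beside 24.9% of all genes tested, and the lowest for 4 (7.84%, beside 24.0%). WT replicate 1 was the lowest for 21 (41.2%, beside 18.5% of all genes) and cKO replicate 1 for 13 (25.5%, beside 11.2%). Each gene's log2 CPM was centred on its own mean, and the average over members was -0.08, 0.00 and 0.02 in WT replicates 1 to 3 and -0.05, 0.02, 0.11 and -0.01 in cKO replicates 1 to 4, so the groups overlapped. Over all genes tested it lay between -0.03 and 0.03.

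The high value in cKO replicate 3 was not shared evenly by role. It was 0.26 for the basket, 0.26 for the importin alpha adaptors and 0.15 for the exportins, and 0.04 for the inner ring, 0.02 for the transmembrane ring and -0.05 for the mRNA export receptor. In WT replicate 1 the mean was -0.12 over structural nucleoporins, -0.05 over importins and exportins and 0.08 over the Ran cycle.

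**Figure D4:**
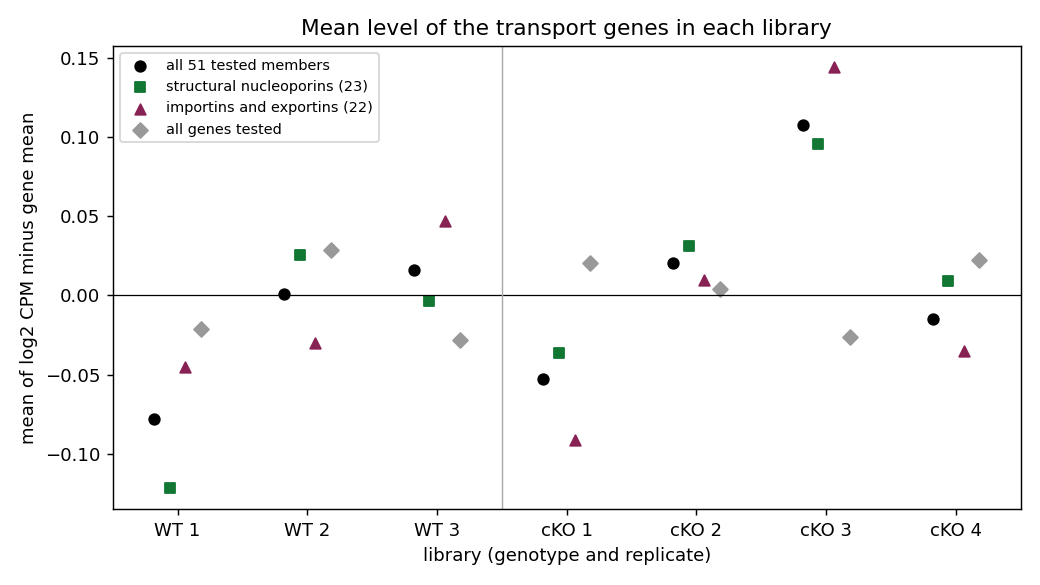
For each library, symbols give the average centred log2 CPM for all 51 members, the 23 structural nucleoporins, the 22 tested importins and exportins, and all genes. Members lie lowest in WT replicate 1 (-0.08) and highest in cKO replicate 3 (0.11), while all genes stay between -0.03 and 0.03.

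Other measures also set some of these libraries apart. Summed striatal markers were lowest in WT replicate 1 (826 CPM) and cKO replicate 1 (888 CPM), where the members' means were lowest too. They were highest in cKO replicate 2 (1582 CPM), followed by cKO replicate 3 (1210 CPM), where the members' mean was highest. Summed markers of oligodendrocytes and myelin, 11 of 11 measured, were lowest in WT replicate 1 (3866 CPM) and cKO replicate 3 (4203 CPM), which lie at opposite ends for the members. The other WT libraries had 5908 and 5399 CPM and the other cKO libraries 6953, 8343 and 7376 CPM, so 3 of 4 cKO libraries lay above every WT library. Log2 fold changes were positive for all 11 of these genes and for all 8 striatal markers, and negative for 7 of 8 microglial markers, with 0 of them called. Summed markers of meningeal fibroblasts, 7 of 7 measured, were highest in these same libraries (69.6 and 67.2 CPM, against 29.9 to 44.4 CPM). cKO replicate 3 also had the highest share of mitochondrially encoded counts, 7.54% against 5.50% to 6.40% in the others, and the lowest sum of excitatory neuron markers. The libraries with the lowest means, WT replicate 1 and cKO replicate 1, were those with 0 and 1 Y-linked counts. With sex as a covariate, 34 of 51 members had positive values, with a median of 0.04, and 1 had an unadjusted p under 0.05. The share of all genes at that p in this fit is not given here. The part of cell composition and RNA quality in the members' values was not tested.

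Genes of the pathway outside the naming rule were read from lists of further pore and export factors, of the mRNA export complexes TREX and TREX-2, and of the nuclear envelope and lamina. Of 59 such genes 54 were tested, and 0 passed an adjusted p of 0.05 in edgeR. An unadjusted p under 0.05 was found for 1 gene (1.85%, beside 7.14% of all genes). Values were positive for 29 and negative for 25, with a median of 0.01, and 23 to 32 were positive with 1 library left out. By list, the positive values were 11 of 23, 10 of 15 and 8 of 16. Abundant genes of these lists had log2 fold changes of -0.01 ± 0.08 (Ddx39b, an mRNA export helicase), 0.01 ± 0.07 (Chtop) and -0.03 ± 0.09 (Thoc1), both of TREX, -0.19 ± 0.14 (Banf1) and 0.07 ± 0.08 (Syne1, the outer envelope protein nesprin), each with its SE.

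Some of these genes stood out and were picked after their values were seen. Zc3h11a, of TREX, was the gene at an unadjusted p under 0.05, with 7.83, 11.9 and 11.8 CPM in WT and 14.2, 13.5, 11.8 and 14.0 CPM in cKO (0.35 ± 0.16, SE; edgeR adjusted p = 0.696), and 0.17 without WT replicate 1. Groups did not overlap for Thoc7, with 17.8, 18.6 and 17.1 CPM in WT and 21.5, 19.4, 19.8 and 22.5 CPM in cKO (0.22 ± 0.11, SE; edgeR adjusted p = 0.700), and for the helicase Ddx19b (0.09 ± 0.08, SE). These are 3.70% of the 54 genes, beside 7.38% of all genes. Aaas, the pore gene of triple A syndrome, had the most negative value, -0.37 ± 0.17 (SE; edgeR adjusted p = 0.698), with 5.14 CPM in cKO replicate 3 and 7.21 to 9.85 CPM in the other libraries, and -0.25 without that library.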

How the data were processed

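RNA-seq libraries of motor cortex, 3 WT and 4 cKO, were read from a deposited table of counts and a separate one of FPKM. The raw counts per gene were made by the authors with featureCounts 1.5.0-p3 on mm10, per the submitters' processing notes, which also name DESeq2 1.20.0. The FPKM values were also deposited by the authors, and were used for levels and as an alternative. Not given in the sources used here are which aligner and gene annotation were used, whether strand was read and how multiply matching reads were handled.

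Counts were scaled by TMM, filtered with filterByExpr and tested with edgeR 4.0.16 (R 4.3.3) by its quasi-likelihood test, with Benjamini-Hochberg adjustment over all 16308 genes. CPM use library totals times TMM factors. Intervals are single-gene 95% intervals. Alternatives used DESeq2 1.42.0, limma 3.58.1, other scalings, filters, covariates and leaving out each library. The edgeR step was run on simulated data with planted changes larger than any seen for a member. That run therefore does not tell how well differences of the members' size would be found. Same-numbered WT and cKO libraries deviated from their group means with correlations of 0.11, 0.13 and 0.12, each over the 0.1 taken to mean pairing, although WT replicate 2 with cKO replicate 4 reached 0.21 and WT replicate 1 with cKO replicate 3 reached 0.13. Precision depends on totals of 15181390 to 16463721 counts and on the spread among 3 WT and 4 cKO libraries.

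Members and lists were chosen with earlier results of these data known. Genes named singly were those with the 5 smallest p in each direction, the most abundant of each role, members in the C9orf72 literature, untested members and the most abundant genes of each other list, of which 1 is not reported here; others are said to be chosen after their values were seen or illustrate a role. All 54 members were found in GENCODE vM21, 53 with the same coordinates.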

Additional observations from a re-analysis of the deposited data

Results flagged for a closer look

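Among the 4 cKO libraries, Kpna2 stood at 28.1 CPM in replicate 3 and at 17.7 to 18.6 CPM in the others, a gap of 0.916 of the group's whole range, above Dixon's critical value for 4 samples. Kpna3 was set apart in the same way, with 154 CPM in cKO replicate 3 against 118 to 124 CPM and a gap of 0.842. Tia1 was lowest in that library, 72.7 CPM against 80.3 to 81.9 CPM, with a gap of 0.832. These are 2 of 51 tested members and the label check, where chance flags about 1 in 20 groups.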

How the results depend on the processing

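Under 20 alternative settings 0 members were called, the smallest adjusted p being 0.394, and 33 of 51 members kept their sign in all. Genes called over the whole table numbered 0 in the main test, 198 with no filter on low counts, 2 with the replicate block, 3 with DESeq2 and 3 on log2(FPKM + 1) with no filter, and 0 to 3 when 1 library was left out. Members at an unadjusted p under 0.05, 2 in the main test, were 1 with no filter, 1 with sex as a covariate and 0 to 3 with 1 library left out. Shares of all genes at that p in these 3 kinds of setting are not given here, so the counts have no background beside them. Positive members were 26 to 38 of 51 and the median 0.0051 to 0.069 with 1 library left out. With the replicate block, in which cKO replicate 4 has no WT partner, there were 36 positive members and a median of 0.047, and 0 members were called. The level of cKO replicate 4 turned from -0.015 to 0.0050 with library size only. Signs turned for Nup205 (-0.0043), Kpna2 (0.014) and Ranbp1 (0.030) with the block and for Chtop (-0.0097), Nup133, Kpna1, Kpna6 and Ipo8 with upper-quartile scaling; the last 3 turned under further settings too. Leaving out 1 library turned the sign of 18 members, and among genes named in the text gave ranges of -0.013 to 0.027 for Chtop, -0.067 to 0.061 for Ddx39b, -0.20 to 0.05 for Kpna2, -0.054 to 0.081 for Kpna3, -0.025 to 0.16 for Kpna4, -0.025 to 0.072 for Kpnb1, -0.037 to 0.055 for Nup133, -0.033 to 0.16 for Nup205, -0.071 to 0.0055 for Nup62, -0.091 to 0.18 for Nxt1, -0.10 to 0.080 for Ranbp1, -0.10 to 0.017 for Thoc1 and -0.062 to 0.28 for Tia1. The cause was not tested. Depth limits Nup37 and Nup43 most, at 2.33 to 4.04 and 2.77 to 5.07 CPM.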
